A study of Trichoderma harzianum with 18 samples.

Results

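The genes described here are Triha1_504610 and Triha1_96503 of the filamentous fungus *Trichoderma harzianum*, listed as M431DRAFT_504610 and M431DRAFT_96503 in the deposited tables. They are 2 of the 14650 genes measured. The study assigned both to glycoside hydrolase family GH3 and predicted them to encode β-glucosidases, and they were selected on their expression values in the cellulose cultures of both strains. Their levels on cellulose are therefore given as a description, and tests are kept to the cultures without cellulose. The study also described both genes as apparently constitutive, with similar levels on D-fructose and without carbon. The tested groups were thus not wholly outside the study's choice of these genes.

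Cellulose is a chain of linked glucose units that fungi break down with several secreted enzymes. Endo-β-1,4-glucanases cut inside the chain, cellobiohydrolases release the disaccharide cellobiose from its ends, and lytic polysaccharide monooxygenases (LPMOs) of family AA9 cut it by oxidation. β-Glucosidases carry out the last step, in which cellobiose and other short glucose chains are split into glucose. Glucose is then phosphorylated inside the cell by glucokinase or hexokinase. In *Trichoderma* species the transcriptional activator XYR1 is known for switching on many cellulase and xylanase genes.

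RNA was sequenced from the mycelium of 18 shake-flask cultures, 3 for each of 6 groups. The wild type was strain CBS 226.95, and the Δ*xyr1-2* mutant was a single purified transformant of it in which a hygromycin resistance cassette replaced *xyr1*, so that any feature of this one transformant is part of each strain comparison. Mycelium of both strains was grown for 36 h on D-fructose with peptone, washed, moved to minimal medium with 1% (w/v) microcrystalline cellulose, 25 mM D-fructose or no carbon source, and collected 18 h later. Every group, the controls included, had thus been grown on D-fructose first.

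Between 16208381 and 21263103 reads were counted on genes in each library. Reads on *xyr1* (Triha1_1126) numbered 1272 to 13130 per library in the wild type and 0 to 11 in the mutant, which fits the strain labels. In 3 of the 6 groups a library stood apart, as measured by the chi-square per degree of freedom of the gene counts of each pair of replicates. Replicate 3 of the wild type on cellulose had 424 and 470 against the others, which had 44.2 between them. Replicate 3 of the wild type on D-fructose had 267 and 231, against 59 between the others, and replicate 1 of the mutant on D-fructose had 270 and 173, against 36. In the other 3 groups no pair was above 80. Even so, replicate 1 of the mutant was the least alike on cellulose (80 and 75, against 20.9) and without carbon (39.4 and 44.9, against 10.7). Tests of the β-glucosidase genes that use the 3 libraries that stood apart are also given without them. Fold changes of other genes, and correlations, are given with all libraries only. Replicate 3 of the wild type on cellulose held the highest of the 3 values for 47.0% of the 9892 genes with a mean over 1 FPKM there, and was more than 2-fold above both other replicates for 13.7% of them. FPKM are reads scaled to gene length and to all reads on genes in the library, so they are shares of the RNA sequenced, and fewer expressing hyphae cannot be told apart from less RNA per hypha. A second scale divides the FPKM by a TMM factor (trimmed mean of M values), which allows for libraries where a few genes take many of the reads. It assumes that most genes are unchanged between libraries, while up to 42.2% of genes were called different in a comparison below. The TMM factors ran from 0.613 to 1.29, so the choice of scale bears on several results below.

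Triha1_504610 lies at positions 3323340 to 3326757 of its scaffold in assembly Triha v1.0, a span of 3418 bases, and Triha1_96503 at positions 590142 to 592734, a span of 2593 bases. The reference table used here does not name the scaffolds. Neither gene overlaps another annotated gene. The gaps to the nearest annotated genes are 1661 bases before and 596 bases after Triha1_504610, where a tRNA gene follows, and 752 bases before and 896 bases after Triha1_96503. The gene lengths behind the FPKM were 2920 and 2508 bases.

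Triha1_504610 was expressed in every library. On cellulose the 3 wild-type cultures had 38.6, 31.5 and 166.2 FPKM (78.8 ± 75.8, mean ± SD, n = 3), and the 3 mutant cultures had 84.0, 91.1 and 79.9 FPKM (85.0 ± 5.65, n = 3). The mutant values all fell inside the wild-type range, whose width came from replicate 3. On D-fructose the wild type had 97.8, 134.3 and 229.9 FPKM (154.0 ± 68.2, n = 3) and the mutant had 45.1, 108.2 and 79.7 FPKM (77.7 ± 31.6, n = 3). These groups overlapped, since mutant replicate 2 was above wild-type replicate 1. Without a carbon source the wild type had 96.1, 75.3 and 81.4 FPKM (84.3 ± 10.7, n = 3) and the mutant had 84.7, 82.6 and 78.9 FPKM (82.0 ± 2.93, n = 3). The mutant cultures again lay inside the wild-type range.

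Triha1_96503 was low on D-fructose in both strains and close to even elsewhere on the FPKM scale. On cellulose it had 46.8, 46.0 and 65.9 FPKM in the wild type (52.9 ± 11.3, n = 3) and 62.1, 54.5 and 53.2 FPKM in the mutant (56.6 ± 4.80, n = 3). The strains overlapped. On D-fructose it had 6.16, 14.6 and 25.9 FPKM in the wild type (15.55 ± 9.89, n = 3) and 3.39, 12.5 and 8.65 FPKM in the mutant (8.19 ± 4.58, n = 3). The strains overlapped here too, and all 6 values were below every value on cellulose or without carbon. Without a carbon source it had 61.2, 57.0 and 51.2 FPKM in the wild type (56.5 ± 5.00, n = 3) and 51.3, 54.7 and 51.7 FPKM in the mutant (52.6 ± 1.88, n = 3). Reads behind these values numbered 1597 to 11682 per library for Triha1_504610 and 141 to 3098 for Triha1_96503.

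**Figure D1:**
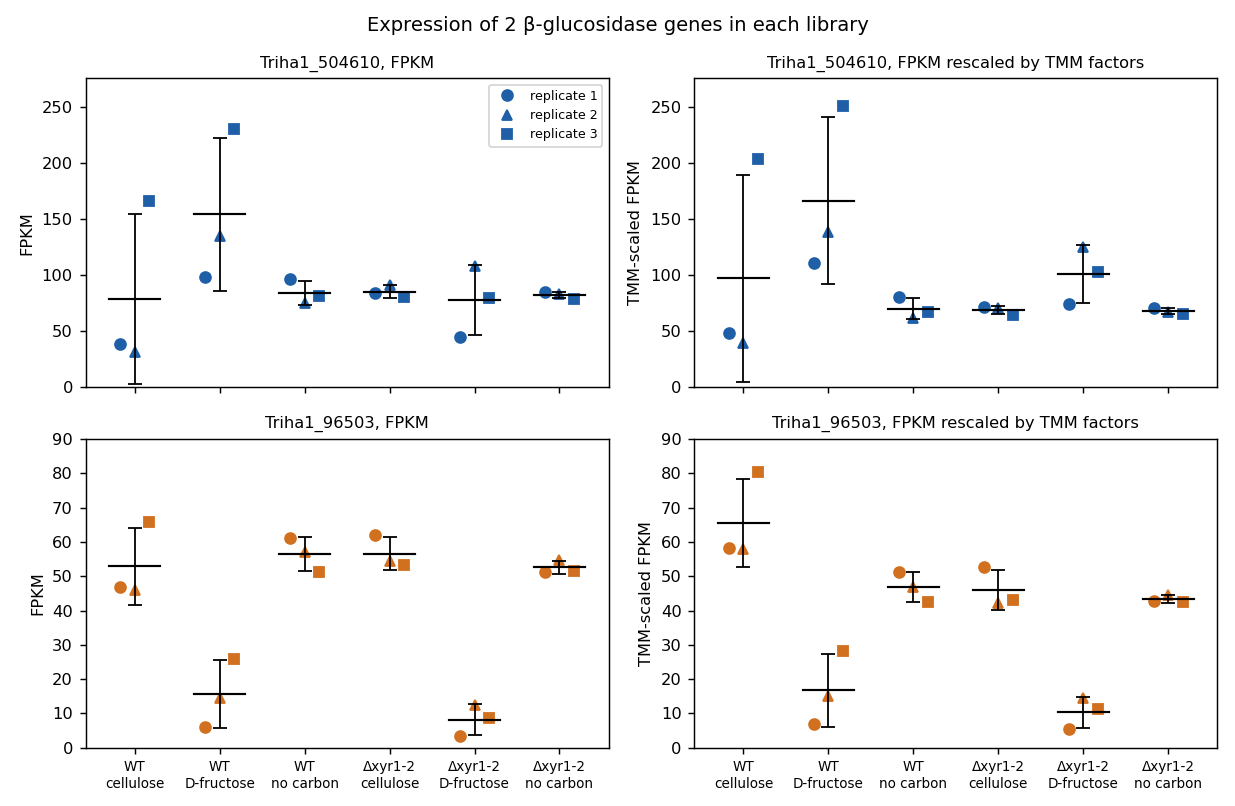
FPKM (left) and FPKM divided by TMM factors (right) of Triha1_504610 (top, blue) and Triha1_96503 (bottom, orange) in each of the 18 libraries, by strain and carbon source. Symbols are replicates, lines are means and bars are SD (n = 3), and the 6 D-fructose values of Triha1_96503, from 3.39 to 25.9 FPKM, lie under all its others.

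By mean FPKM, the order for Triha1_504610 was wild type on D-fructose, mutant on cellulose, wild type without carbon, mutant without carbon, wild type on cellulose and mutant on D-fructose. Only the first group stood clear of the next, its lowest culture (97.8 FPKM) being above the highest of the mutant on cellulose (91.1 FPKM). The other neighbours in the order overlapped. On the TMM scale the wild type on D-fructose stayed first with a mean of 166.2, and the mutant on D-fructose moved from last to second with 100.6. For Triha1_96503 the order by mean FPKM was mutant on cellulose, wild type without carbon, wild type on cellulose, mutant without carbon, wild type on D-fructose and mutant on D-fructose. The first 4 groups overlapped with their neighbours, as did the last 2 groups, and a gap separated the 4 from the 2.

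Among all genes, the rank of Triha1_504610 by mean FPKM ran from 874 for the wild type on D-fructose to 1870 for the mutant without carbon. At least 87.2% of genes lay below it in every group. Triha1_96503 ranked 2274 for the wild type on cellulose and 2844 for the mutant without carbon, but 5332 and 6397 on D-fructose in the wild type and the mutant. In the mutant on D-fructose only 56.3% of genes lay below it.

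How even each gene was across the 6 groups was set against all genes with a mean over 1 FPKM in every group. The highest group mean of Triha1_504610 was 1.98 times its lowest, and 30.0% of 9125 genes had a smaller ratio. For Triha1_96503 the ratio was 6.91, and 88.2% of genes had a smaller one. The median gene had a ratio of 2.58. The place of Triha1_504610 depended on single cultures, since without replicate 3 of the wild type on cellulose its ratio was 4.39 and 74.5% of genes were smaller, and without replicate 3 of the wild type on D-fructose these values were 1.49 and 9.1%. On the TMM scale its ratio was 2.46, with 52.3% of genes smaller.

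**Figure D2:**
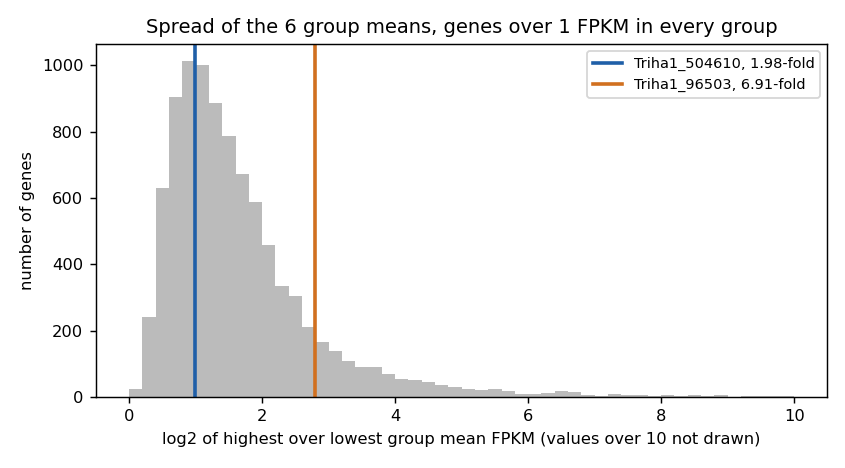
Distribution over genes of the highest of 6 group mean FPKM divided by the lowest, as log2 on the x axis, with the number of genes per bin on the y axis. The blue line is Triha1_504610 (1.98-fold), left of most genes, and the orange line is Triha1_96503 (6.91-fold), in the right tail.

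Replicates of a group did not vary alike for the 2 genes. For the wild type on cellulose, the highest culture of Triha1_504610 was 5.27 times the lowest, and 7.0% of 9866 other genes varied more. The same ratio was 1.43 for Triha1_96503, where 68.7% of genes varied more. On D-fructose it was Triha1_96503 that varied more, 4.20-fold in the wild type and 3.69-fold in the mutant, against 2.35-fold and 2.40-fold for Triha1_504610. There 4.4% and 10.1% of genes varied more than Triha1_96503, and 20.7% and 25.2% more than Triha1_504610. Without carbon, and for the mutant on cellulose, the ratios were between 1.07 and 1.28 for both genes. The median gene in those groups had 1.17 to 1.24.

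The response to the absence of a carbon source was tested against D-fructose within each strain with edgeR's quasi-likelihood test. A call required a Benjamini-Hochberg adjusted p under 0.05, more than a 2-fold change, and over 1 FPKM on average in either group. In the wild type both genes were called, in opposite directions. Triha1_504610 was lower without carbon, with a log2 fold change of -1.25 ± 0.318 (SE, 95% interval -1.996 to -0.505, edgeR adjusted p = 0.0154). Its FPKM without carbon were all below those on D-fructose, at 0.547 times the mean. Triha1_96503 was higher without carbon, with a log2 fold change of 1.49 ± 0.445 (SE, 95% interval 0.45 to 2.53, edgeR adjusted p = 0.0283). Its mean was 3.63 times that on D-fructose as FPKM and 2.80 times on the TMM scale, with no overlap on either. Of the 11453 genes tested, 29.9% were called, 14.4% higher and 15.5% lower, so a call in this comparison was common.

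Both wild-type calls were close to the threshold. The call of Triha1_504610 was lost without wild-type D-fructose replicate 3, where the log2 fold change was -0.84 and thus under 2-fold, and without no carbon replicate 2 or replicate 3, where edgeR's adjusted p was 0.0674 and 0.0593. It was also lost with scaling by library size alone (-0.87), a scaling that moved the median of all genes by 0.42. The call of Triha1_96503 was lost without D-fructose replicate 2 (log2 fold change 1.32, edgeR adjusted p = 0.125) and without no carbon replicate 1, 2 or 3 (adjusted p = 0.0777, 0.0718 and 0.059). Without D-fructose replicate 3, the library that stood apart, the log2 fold change of Triha1_96503 was 2.08 and the call stood. Over all 12 alternatives each gene kept its sign and was called in 8, with log2 fold changes from -1.54 to -0.84 for Triha1_504610 and from 1.05 to 2.08 for Triha1_96503.

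In the mutant, Triha1_96503 again rose without carbon. Its log2 fold change was 2.06 ± 0.329 (SE, 95% interval 1.28 to 2.84, edgeR adjusted p = 0.00202). The mean was 6.42 times that on D-fructose as FPKM and 4.17 times on the TMM scale, and the groups did not overlap on either. The call stood in all 12 alternatives, with log2 fold changes from 1.76 to 2.68, the lowest being that without D-fructose replicate 1, which stood apart. Triha1_504610 was not called in the mutant, with a log2 fold change of -0.57 ± 0.212 (SE, 95% interval -1.07 to -0.07, edgeR adjusted p = 0.0541). Without D-fructose replicate 1 it was -0.75, still under 2-fold. Its sign turned with the scaling, being 0.08 by library size alone, which moved the median of all genes by 0.73. The mean without carbon was 1.06 times that on D-fructose as FPKM, with overlapping groups, and 0.672 times on the TMM scale, with separate groups. Of the 11312 genes tested in the mutant 39% were called, 18.7% higher and 20.3% lower.

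The strains were compared on D-fructose and without carbon in the same way, and neither gene was called in either comparison. On D-fructose the mutant minus wild-type log2 fold change was -0.77 ± 0.382 (SE, 95% interval -1.66 to 0.12, edgeR adjusted p = 0.619) for Triha1_504610. It was -0.72 ± 0.541 (SE, 95% interval -1.98 to 0.53, edgeR adjusted p = 0.657) for Triha1_96503. Much of both differences came with single libraries. Without wild-type replicate 3, which held the highest value of both genes on D-fructose, they were -0.31 and -0.08, and without mutant replicate 1, which held the lowest, they were -0.57 and -0.41. With all 6 libraries, these intervals reach past a 2-fold decrease, so a difference of that size cannot be told from none with 3 cultures a strain. Of 10908 genes 0.00917% were called, which is *xyr1* alone, while DESeq2 called 108 and the unadjusted p was under 0.05 for 878. Neither of the β-glucosidase genes was among the 878 or the 108.

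Without carbon the strains lay closer. The log2 fold change was -0.03 ± 0.104 (SE, 95% interval -0.27 to 0.21, edgeR adjusted p = 0.966) for Triha1_504610 and -0.09 ± 0.0838 (SE, 95% interval -0.28 to 0.10, edgeR adjusted p = 0.822) for Triha1_96503. Both intervals stay within a 2-fold change. Leaving out each library in turn gave -0.11 to 0.09 for Triha1_504610, where the sign turned without wild-type replicate 1 or mutant replicate 3, and -0.16 to -0.02 for Triha1_96503. Here 0.132% of 11387 genes were called by edgeR and 24 genes by DESeq2, and the unadjusted p was under 0.05 for 738, with neither of the 2 genes among any of these.

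Whether the response to the absence of carbon differed between strains was tested as an interaction over the 12 libraries without cellulose. The mutant response minus the wild-type response was 0.68 ± 0.402 on the log2 scale (SE, 95% interval -0.20 to 1.56, edgeR adjusted p = 0.607) for Triha1_504610 and 0.57 ± 0.587 (SE, 95% interval -0.71 to 1.85, edgeR adjusted p = 0.716) for Triha1_96503. Without wild-type D-fructose replicate 3 the values were 0.26 and -0.04, so the sign for Triha1_96503 turned, and without mutant D-fructose replicate 1 they were 0.50 and 0.27. Neither gene was called, so the call of Triha1_504610 in the wild type and not in the mutant does not show that the strains differ. In this test 0% of 11826 genes were called by edgeR, while DESeq2 called 67 and the unadjusted p was under 0.05 for 973, neither of the 2 genes among either set.

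**Figure D3:**
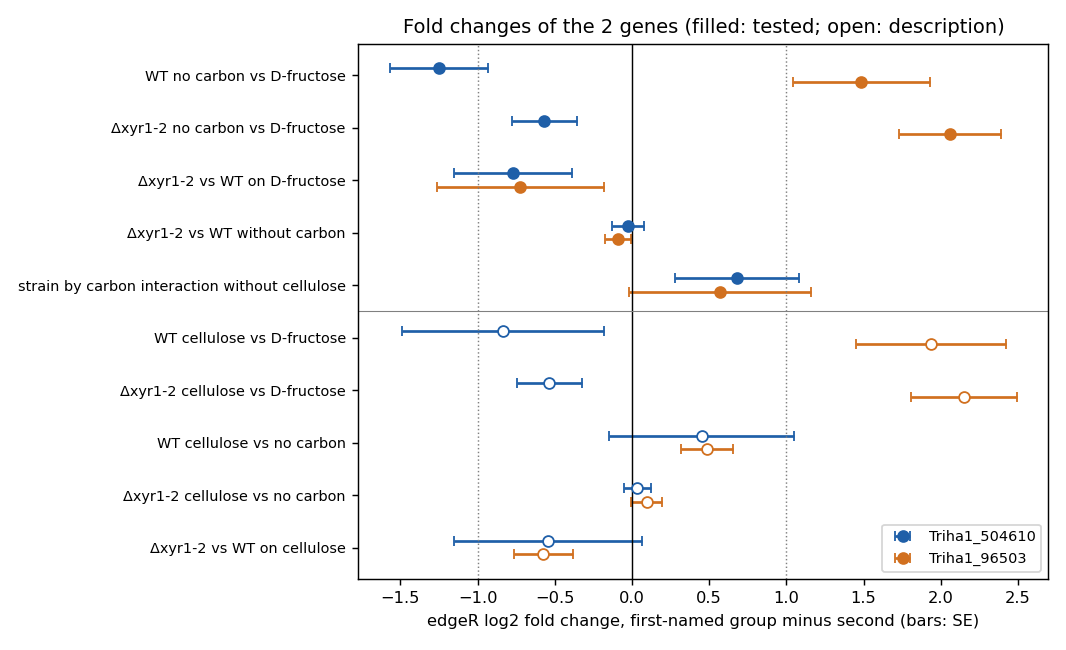
edgeR log2 fold changes of Triha1_504610 (blue) and Triha1_96503 (orange), first-named group minus second, with bars for the SE and dotted lines at a 2-fold change. Filled symbols are tested comparisons and open symbols, which involve cellulose, are descriptions, and Triha1_96503 lies from 1.49 to 2.15 in the 4 comparisons with D-fructose within a strain.

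The values on cellulose follow without tests, because expression there chose the genes. Between the strains on cellulose, the mutant mean was 1.08 times the wild-type mean as FPKM for Triha1_504610 and 1.07 times for Triha1_96503. On the TMM scale these ratios were 0.711 and 0.702, so the direction depended on the scale, and scaling by library size alone moved the median of all genes by 0.68 log2 units. The edgeR log2 fold change was -0.55 ± 0.609 (SE) for Triha1_504610 and turned to 0.57 without wild-type replicate 3. It was -0.57 ± 0.192 (SE) for Triha1_96503, -0.42 without wild-type replicate 3 and 0.10 by library size alone. The strains were separate for 1 of the 2 genes on the TMM scale, Triha1_96503, and for neither as FPKM, in a comparison where 42.2% of all genes were called.

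Against D-fructose, Triha1_96503 was 3.40 times higher on cellulose in the wild type and 6.91 times higher in the mutant by mean FPKM, with no overlap in either strain. On the TMM scale these ratios were closer, at 3.9 and 4.4, again with no overlap. The log2 fold changes were 1.93 ± 0.486 (SE) in the wild type and 2.15 ± 0.342 (SE) in the mutant, and the share of all genes called was 7.58% in the wild type (2.77% higher, 4.81% lower) and 39.6% in the mutant (19.6% higher, 19.9% lower). Triha1_504610 had a log2 fold change of -0.84 ± 0.652 (SE) in the wild type, which was -1.92 without cellulose replicate 3 and -0.43 without D-fructose replicate 3. In the mutant it was -0.54 ± 0.212 (SE), -0.73 without D-fructose replicate 1, and 0.13 by library size alone. The values of Triha1_96503 without these 3 libraries were 1.80, 2.53 and 1.83 in the same order. As FPKM the groups of Triha1_504610 overlapped in both strains.

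Same-numbered wild-type cultures on cellulose and D-fructose deviated together over all genes, so their ratios were also taken within a number. The protocol does not state that a number marks the same pre-culture set across groups, so these pairs are a description. The cellulose to D-fructose ratio of FPKM for Triha1_504610 was 0.395, 0.235 and 0.723 in replicates 1, 2 and 3, and for Triha1_96503 it was 7.59, 3.15 and 2.55. The first gene was lower on cellulose and the second higher in all 3 pairs.

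Against no carbon, the mutant on cellulose was nearly level for both genes, with log2 fold changes of 0.03 ± 0.0876 (SE) for Triha1_504610 and 0.09 ± 0.103 (SE) for Triha1_96503, where 0.0782% of all genes were called. In the wild type the values were 0.45 ± 0.599 (SE) and 0.49 ± 0.171 (SE). By library size alone both were -0.10, and without cellulose replicate 3 that of Triha1_504610 was -0.60. In this comparison 42% of all genes were called, 19.9% higher and 22.1% lower.

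The ratio of the 2 genes within a library does not depend on how libraries are scaled. It was chosen after the values had been seen and is a description. In the wild type on D-fructose Triha1_96503 had 0.063, 0.109 and 0.113 times the FPKM of Triha1_504610, and in the mutant on D-fructose 0.0752, 0.116 and 0.109 times. Without carbon the ratios were 0.637, 0.758 and 0.630 in the wild type and 0.606, 0.663 and 0.655 in the mutant. On cellulose they were 1.21, 1.46 and 0.396 in the wild type and 0.739, 0.598 and 0.665 in the mutant. All 6 D-fructose libraries were below the other 12, whose lowest was replicate 3 of the wild type on cellulose. Triha1_96503 was above Triha1_504610 in 2 of the 18 libraries, the other two replicates of that group.

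**Figure D4:**
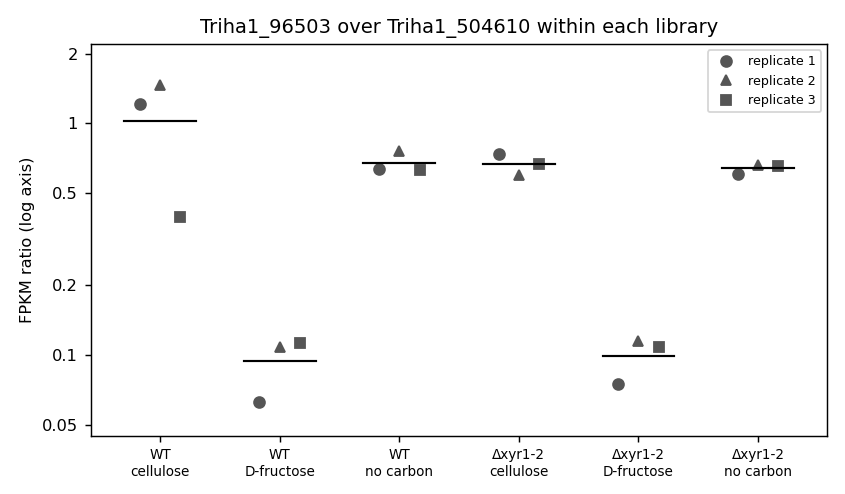
FPKM of Triha1_96503 divided by FPKM of Triha1_504610 within each library, on a log axis, by strain and carbon source. Symbols are replicates and lines are means (n = 3), and the 6 D-fructose libraries lie from 0.063 to 0.116 against 0.396 to 1.46 for the other 12.

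Over the 18 libraries the 2 genes did not follow each other, with Pearson's r of 0.02 and Spearman's rho of 0.09 on log2 FPKM. Within the 6 D-fructose libraries r was 0.95 and rho was 0.94, and the genes ranked the 3 cultures of each strain in the same order. The replicate with the lowest value of both, mutant replicate 1, also had the lowest FPKM of the 6 for 53.7% of the 10217 genes with a mean over 1 FPKM there. The part of this library-wide shift in the correlation was not tested.

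The genes most alike in pattern were found by Pearson's r of log2(FPKM + 1) with each gene over the 18 libraries, among 11587 genes. For Triha1_504610 they were Triha1_122757 (r = 0.976), Triha1_81673 (r = 0.956) and Triha1_508149 (r = 0.949). For Triha1_96503 they were Triha1_504281 (r = 0.952), Triha1_72742 (r = 0.950) and Triha1_127222 (r = 0.946). Of these 6 genes only Triha1_72742 was in the annotation used, as *gar1* of D-galacturonic acid catabolism. Its mean FPKM was 17.8 and 15.3 on D-fructose in the wild type and the mutant, against 29.3 to 35.6 in the other groups. Triha1_122757 had its highest mean, 37.4 FPKM, in the wild type on D-fructose, as Triha1_504610 did, against means of 18.4 to 22.3 elsewhere. In replicates 1, 2 and 3 of the wild type on cellulose it had 11.1, 9.68 and 45.5 FPKM. Triha1_81673 had 5.04, 3.53 and 74.2 FPKM there, and Triha1_508149 had 25.1, 24.2 and 112.4. Each was highest in replicate 3, as Triha1_504610 was, and r was not taken without this library.

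Other genes of cellulose breakdown, and the glucose kinase genes, were compared between the strains on cellulose with the same test. CEL7A (Triha1_7497) and CEL6 (Triha1_508689), the 2 cellobiohydrolases, fell from 5274 ± 6016 to 3.41 ± 4.83 FPKM and from 4028 ± 3546 to 2.499 ± 2.855 FPKM (SD, n = 3) between the wild type and the mutant on cellulose. The log2 fold changes were -11.28 ± 1.90 (SE, edgeR adjusted p = 0.00353) and -11.34 ± 1.42 (SE, edgeR adjusted p = 0.00124). The 21 listed genes, called cellulose genes here, include the 2 glucose kinase genes. Of the 21, 17 passed the filter on low counts. Of these, 12 were lower in the mutant and 1 was higher, where 20.7% and 21.5% of all genes were called in those directions. Some of the 17 passed only through the wild type, such as Triha1_91916 with 0 to 3 reads per mutant library on cellulose. Such genes could only come out lower in the mutant, so these counts are a description. The 12 were both cellobiohydrolases, 7 of the 11 endoglucanases that passed, both AA9 LPMOs that passed and *glkA*. The median log2 fold change of the 11 endoglucanases was -5.12, which is the value of Triha1_521975. This gene too passed only through the wild type, with 30 to 142 reads per library there and 0 to 6 in the mutant. The filter thus bears on the median, which cannot be set against the 0.00 over all genes. Against D-fructose in the wild type, 10 of the 17 were higher on cellulose, with 2.77% of all genes called in that direction. Genes that passed only through the wild type on cellulose could only come out higher here, so this count is a description too.

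Replicate 3 of the wild type on cellulose, where Triha1_504610 was high, was also the highest for CEL7A, at 12220 FPKM against 2002 and 1602. It was more than 2-fold above both other replicates for 11 of the 17 cellulose genes with a mean over 1 FPKM in that group, beside 13.7% of all genes. The *xyr1* transcript was at 72.6, 144.7 and 273.0 FPKM in replicates 1, 2 and 3. The part of this in the value of Triha1_504610 was not tested.

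The glucose kinases act on the product of β-glucosidases. The glucokinase gene *glkA* (Triha1_92402) had 516 ± 280 FPKM in the wild type and 95.1 ± 2.30 FPKM in the mutant on cellulose (SD, n = 3), with a log2 fold change of -3.14 ± 0.45 (SE, edgeR adjusted p = 0.00198). The hexokinase gene *hxkA* (Triha1_3663) had 129.9 ± 23.4 and 206.1 ± 19.2 FPKM (SD, n = 3), with a log2 fold change of -0.02 ± 0.211 (SE, edgeR adjusted p = 0.948).

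In the cultures without cellulose, 10 of the listed genes passed the filter in each strain. In the wild type 2 of them were higher without carbon than on D-fructose and 1 was lower, where 14.4% and 15.5% of all genes were called in those directions. In the mutant 3 were higher and 3 were lower, where the shares were 18.7% and 20.3%. With so few genes, nothing about the list is read from these counts.

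**Figure D5:**
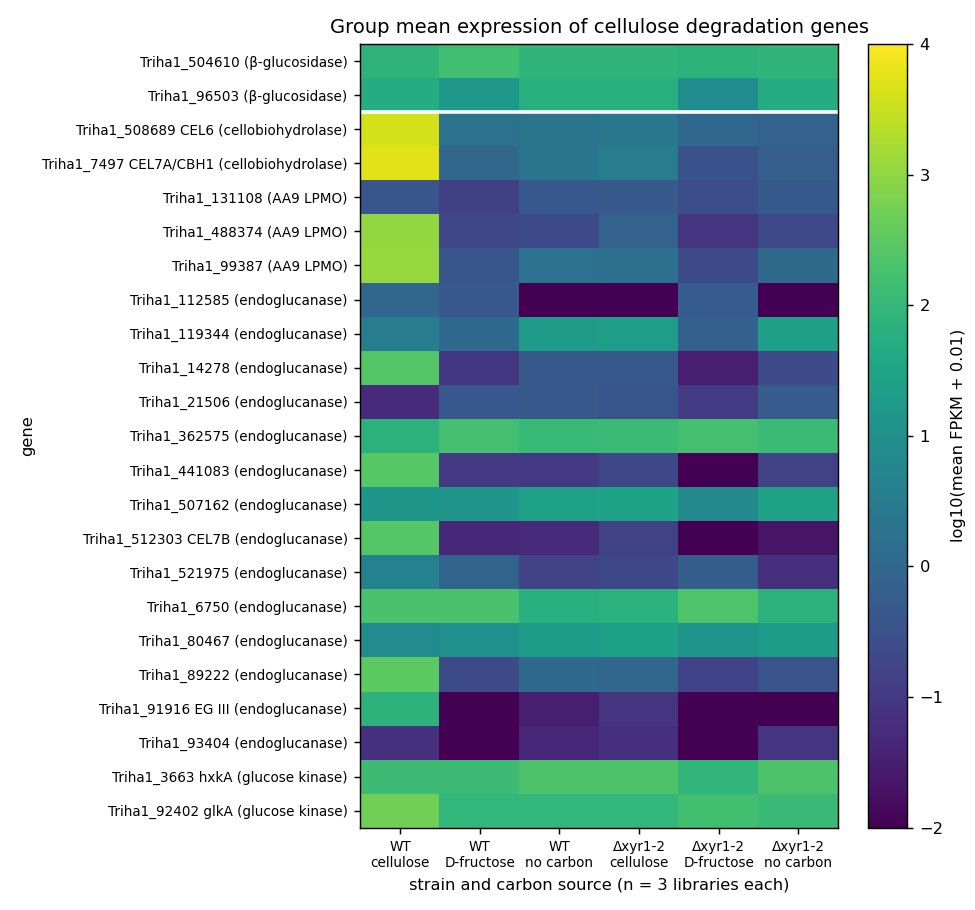
Group mean FPKM (n = 3), as log10 of the mean plus 0.01, by gene in rows and by strain and carbon source in columns. The rows are the 2 β-glucosidase genes (above the white line) and 21 other genes, 2 of them glucose kinase genes. CEL7A and CEL6 have 5274 and 4028 FPKM in the wild type on cellulose and 3.41 and 2.499 in the mutant. The β-glucosidase genes were selected on their expression on cellulose, so their rows are a description, and the mutant to wild-type ratios there, 1.08 and 1.07 as FPKM, are 0.711 and 0.702 on the TMM scale.

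The protein-coding genes next to Triha1_504610 did not share its pattern. Triha1_310431 before it had a mean of 1.11 FPKM on D-fructose and 5.80 without carbon in the wild type, and Triha1_310539 after it had 28.8 and 79.8. Both were called higher without carbon there, with log2 fold changes of 1.99 ± 0.324 (SE, edgeR adjusted p = 0.00231) and 1.10 ± 0.282 (SE, edgeR adjusted p = 0.0157). Next to Triha1_96503, Triha1_268993 had 0.394 and 4.68 FPKM and was called higher without carbon, with a log2 fold change of 3.17 ± 0.509 (SE, edgeR adjusted p = 0.00218). Triha1_486451, on its other side, had 18.7 and 41.0 FPKM and a log2 fold change of 0.75 ± 0.131 (SE), under the 2-fold threshold. In the wild type on cellulose these neighbours of Triha1_96503 had means of 0.073 and 17.6 FPKM, below those on D-fructose. Triha1_96503 itself had 52.9 there against 15.55. In the mutant on cellulose the neighbours had 6.985 and 36.65 FPKM, above 0.176 and 12.5 on D-fructose.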

How the data were processed

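The authors prepared poly-A libraries with a kit not stated to keep strand, sequenced paired-end reads and mapped them to the genome of CBS 226.95. The submitters' processing notes name STAR 2.5.2b and HTSeq 0.5.4. The authors deposited raw read counts per gene and FPKM for 14650 genes in 18 libraries. Of these genes 14290 have annotated identifiers, all found in the RefSeq gene table of assembly Triha v1.0, which gave positions.

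Counts were tested with edgeR 4.0.16 (R 4.3.3), quasi-likelihood F-test, TMM and filterByExpr, on the 6 libraries of each pair of groups or 12 for the interaction, with Benjamini-Hochberg adjustment over all genes. SE came from the F statistic. The script was tested on simulated data. Other values used Python 3.11.15. Alternatives were DESeq2 1.42.0, RLE size factors, library size only, no filter, all 18 libraries, a replicate block and leaving out each library. No replicate pair matched within sampling noise.

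The protocol describes separate spore plates for each of 3 sets of replicate pre-cultures. It does not state that the replicate number marks the set across groups. After subtracting group means, libraries sharing a number correlated at r over 0.1 for all 3 numbers in 2 of 15 pairings of groups, namely wild-type cellulose with D-fructose (r = 0.39, 0.18 and 0.38) and mutant cellulose with no carbon (r = 0.20, 0.18 and 0.13).

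The members, the lists and the tests were chosen with earlier results of these data known. The cellulose lists come from the annotation columns of the part of the study's gene table used here. Named genes are the 2 β-glucosidase genes, *xyr1*, CEL7A, CEL6, *glkA*, *hxkA*, the 3 genes most alike to each β-glucosidase gene and the nearest protein-coding neighbours. Other GH3 and GH1 genes, the share of the 2 genes in their family and their protein and promoter sequences were planned but not analysed here, and the cellulose lists took their place. The authors' own fold changes and p-values were not used.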

Additional observations from a re-analysis of the deposited data

How the results depend on the processing

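For the tests without cellulose, Triha1_96503 without carbon against D-fructose in the mutant was called under every alternative run, and the strain comparisons and the interaction under none. In the wild type, scaling by library size only took the log2 fold change of Triha1_504610 to -0.87, under 2-fold. Leaving out 1 library at a time gave -1.54 to -0.84 for Triha1_504610 (called in 3 of 6) and 1.05 to 2.08 for Triha1_96503 (called in 2 of 6). With the replicate block, the wild-type log2 fold changes without carbon against D-fructose were -1.17 (edgeR adjusted p = 0.0282) for Triha1_504610 and 1.69 (adjusted p = 0.0219) for Triha1_96503, those of the mutant were -0.54 and 2.16, and the block changed no call. The ratio of highest to lowest group mean of Triha1_504610 was 3.48 with medians of replicates, and 1.49 to 4.39 leaving out 1 library. That of Triha1_96503 was 5.35 to 9.40. The share of genes with a smaller ratio, for Triha1_504610 and Triha1_96503, was 52.3% and 87.4% on the TMM scale, 65.5% and 86.2% with medians, 24.4% and 79.6% with genes over 1 FPKM in at least 1 group, and 9.1% to 74.5% and 83.6% to 91.3% leaving out 1 library. The cause of these shifts was not tested. Counts of cellulose genes, whose alternatives were added after the data were seen, were 11 to 12 lower in the mutant on cellulose and 8 to 12 higher on cellulose in the wild type. The planned GH3 and GH1 list, its summed FPKM and the sequence features were not run. With 3 cultures a group, the strain intervals on D-fructose allow a change over 2-fold.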
